A study of Oryza sativa with 4 samples.

Results

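Groups of OsMADS27 peaks at separate places in the rice genome carried the same tag numbers and the same widths. Peaks of the replicate 1 and replicate 2 lists were paired when they overlapped by at least 50% of the shorter peak and each was the other's best partner by overlap, which gave 55251 shared pairs. Loci were selected on pileup (tags over the summit) and peak length: a pair was kept when both values, in both lists, equalled those of at least 4 other pairs, and pairs with a pileup of 0.9 or more of the list maximum in either list were left out. This kept 1639 loci (2.97% of the shared pairs) in 174 sets of 5 or more loci. Equal tag numbers and widths chose the sets, and fold comes from the same contrast, so these values are given as a description.

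The material was young regenerating seedlings of indica rice (Pusa Basmati 1, PB1), transgenic for an overexpressed OsMADS27 carrying 3xMyc at its N terminus and kept on half-strength Murashige-Skoog medium with no treatment. Chromatin was pulled down on Myc-Trap beads and sequenced next to sheared input chromatin of the same genotype, with 2 pulled-down and 2 input libraries, and all 4 carry the transgene. The labels do not name its promoter, and no samples without the tag were analysed here. After removal of excess duplicates the pulled-down libraries held 136923044 and 130482505 tags and the inputs 131452322 and 127964706. The labels do not say whether the replicates came from separate plants or pull-downs, and their values are given side by side without a test.

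OsMADS27 belongs to the MADS-domain transcription factors, which bind DNA as dimers at AT-rich CArG boxes. It is related to ANR1 of Arabidopsis thaliana, a regulator of the root response to nitrate, and rice plants with more OsMADS27 have been studied for nitrate-dependent root growth. Plant genomes also hold many copies of transposable elements, which lie in both directions along the chromosomes; retrotransposons of the LTR class carry the same repeat at each end, and tandem duplications lie head to tail. A short sequencing tag from such a sequence can match every copy of it. The file headers place the aligned tags in a folder named for Bowtie. How tags with several matches were treated is not given in the sources used, and its part in the equal values was not tested. The genome build is not named either, so coordinates are those of the lists, no locus was assigned to a gene or element, and no sequence is shown.

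Sets are numbered by their number of loci, from set 1 with the most, with ties in the order of their first position. Most sets were small: 48 had 5 loci, 37 had 6 and 19 had 7, and the median was 7. The 55 sets with 10 or more loci held 916 of the 1639 loci, and the 14 sets with 20 or more held 385. Loci of 167 sets lay on more than one sequence, 99 sets reached at least 5 of the 12 chromosomes, and 9 sets reached 10 or more.

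Set 1 had 56 loci on all 12 chromosomes. Each had 360 pulled-down tags over the summit in replicate 1 (95% exact Poisson interval 324 to 399) and 334 in replicate 2 (299 to 372), and each was 114 bp long in both lists. The first of them lay on chromosome 1 at 4188297 to 4188410. The deposited fold enrichment is the ratio of pulled-down tags to local input background. Its median was 2.19 in replicate 1 and 2.42 in replicate 2. All 56 loci were at or above a fold of 2 in both lists, as were 25.4% of all shared pairs. The rule gave these loci equal tags, and their folds spanned only 2.18 to 2.19 and 2.36 to 2.42. The 56 loci thus repeat nearly the same value, and nothing is read from their number. Set 1 had the most loci and was among the 22 sets with median folds of at least 2 in both lists.

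The next sets by size differed from one another in tags and fold. Set 2, with 40 loci on 11 chromosomes, had 309 and 291 tags in replicates 1 and 2 and folds of 1.63 and 1.82. Set 3, with 36 loci on 10 chromosomes, had fewer tags, 239 and 237, but higher folds, 2.19 and 2.68, over fewer input tags (104 and 86, against 182 and 156 at set 2). Its peaks were 53 and 62 bp long, and the first was on chromosome 1 at 5667704 to 5667756. Set 4, with 35 loci on 11 chromosomes, had 213 and 203 tags and folds of 1.73 and 1.85. Set 5 had 27 loci with 405 and 440 tags and folds of 1.81 and 1.78. Set 6 had 24 loci with 401 and 372 tags and folds of 1.97 and 1.99. Set size and fold were not related in rank: across the 174 sets, Spearman's rho between the number of loci and the median fold was 0.06 in replicate 1 and 0.04 in replicate 2, given as a description since the sets share 1 library each.

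The 4 sets with the highest folds had between 6 and 21 loci. Set 62 had 9 loci on 5 chromosomes, and the first began at 6175947 of chromosome 12. Each locus held 230 tags in replicate 1 (201 to 262) and 222 in replicate 2 (194 to 253). Its median folds were 2.84 and 2.60. Set 69 had 8 loci with 261 and 257 tags and folds of 2.57 and 2.94. Set 95 had 6 loci with 319 and 316 tags and folds of 2.63 and 2.41, and set 9 had 21 loci with 382 and 387 tags and folds of 2.44 and 2.41. These 4 sets were the highest by the smaller of the list medians, and their most common input values ranged from 77 to 157.

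At the other end, set 44, with 11 loci on 9 chromosomes, had 404 and 394 tags but folds of 1.18 and 1.25, over input backgrounds of 329 and 309 tags. Set 103, with 6 loci, had folds of 1.20 and 1.18, and set 87, with 7 loci, had folds of 1.20 and 1.42. Each of these 3 sets had more pulled-down tags than sets 62, 69 and 95, which were among the highest in fold. Across sets, the fold fell as the input background rose, with a rho of −0.64 in replicate 1 and −0.60 in replicate 2; fold is computed by dividing by that background.

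Counted once per set, folds in replicate 1 had a median of 1.68, with quartiles at 1.49 and 1.95. Those in replicate 2 had a median of 1.74, with quartiles at 1.49 and 1.99. A fold of at least 2 was reached by 377 of the 1639 loci in replicate 1 (23.0%, against 32.7% of all listed peaks) and by 443 in replicate 2 (27.0%, against 36.5%). In both lists at once it was reached by 289 loci (17.6%, against 25.4% of all shared pairs). The rule used the tags of this contrast, so nothing is read from these shares. By set medians, 22 sets were at or above a fold of 2 in both lists, 10 in replicate 1 only and 20 in replicate 2 only. No locus of any set had a fold of 3 or more in either list, a fold reached by 2.15% and 3.03% of all listed peaks. Nothing is read from this either, for the same reason. The highest single values in the sets were 2.997 and 2.94.

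Tag numbers of a set followed each other between the replicates. The ratio of replicate 1 to replicate 2 tags ranged from 0.920 in set 5 to 1.26 in set 130, with a median of 1.04, beside a ratio of 1.05 between the library sizes. The exact Poisson intervals of both replicates overlapped in all 174 sets. They treat tags as free counts, though at most 5 tags were kept per position and strand. They also leave out variation between samples, so the overlap is no measure of how well the replicates match. Folds differed more. Set 16, with 19 loci, had 189 tags over an input of 102 in replicate 1 and 153 over 117 in replicate 2, so its fold was 1.77 in one list and 1.28 in the other, the highest ratio of any set (1.38). In set 138 the tags were nearly equal, 417 and 414, but the input was 265 in replicate 1 and 197 in replicate 2, and the folds were 1.51 and 2.06, the lowest ratio (0.734). The median fold was higher in replicate 2 for 104 of the 174 sets.

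**Figure D1:**
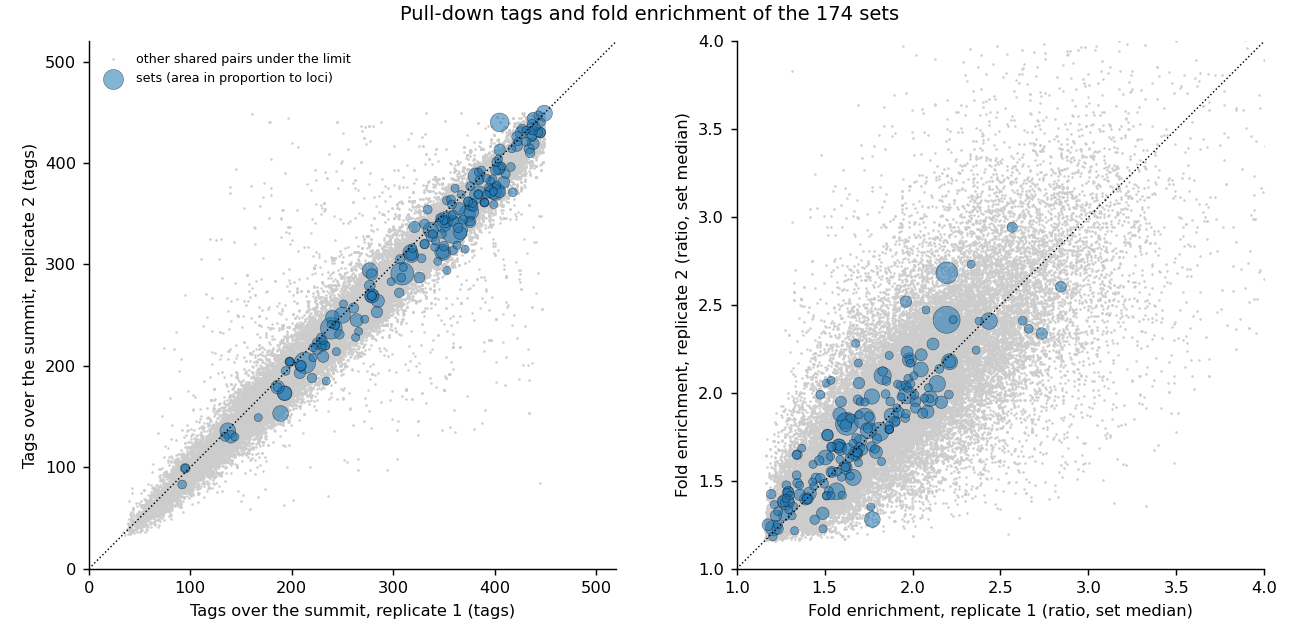
Each blue circle is 1 of the 174 sets, with an area in proportion to its loci; grey dots are the other shared pairs under the tag limit. The left panel plots tags over the summit and the right panel fold enrichment (set median), replicate 1 on the x axis and replicate 2 on the y axis, with a dotted line of equality; 118 other pairs with a fold above 4 lie outside the right panel. Sets lie near the line in tags, from 92 to 449 in replicate 1, and spread more widely in fold, from 1.18 to 2.84.

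The tag limit and the minimum of 5 loci set the edges of the collection. No position can hold more than 500 tags, since tags were 50 bp long and at most 5 were kept per position and strand, and the limit of 0.9 of the maximum was 450 tags in each list. Just inside it was set 13, with 20 loci at 449 tags in both lists and folds of 1.75 and 1.79. Just outside, 528 loci in 47 further sets were left out for tag numbers at or above the limit in at least 1 list, with median folds of 1.40 and 1.45. Sets of 4 loci numbered 116, with median folds of 1.67 and 1.73 over their loci, beside 1.69 and 1.80 for the sets of 5.

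Most loci of a set also had equal input. Input tags here are the peak caller's local input background at the summit, recomputed from pileup and fold. Windows of 1000 and 10000 bp enter this background, so it need not be a whole number. All 10 loci of set 46 had 112.3 in replicate 2. The rule did not use the background directly. The peak caller sets the ends of a peak against the input, so matching on length also selects on input. The equal values are a description. In replicate 1, 1450 of the 1639 loci (88.5%) had the most common input value of their set within 0.5 tags, and in replicate 2, 1448 (88.3%). With tags matched and length free, the shares were 46.3% and 46.0%, and with tags and length matched in a single list they were 38.4% in either. All loci of a set had one input value in 115 sets in replicate 1, in 122 in replicate 2 and in 97 sets (55.7%) in both. All 40 loci of set 2 had 182 input tags in replicate 1 and 156 in replicate 2, and all 35 loci of set 4 had 118 and 107. Where the input differed within a set, it mostly differed by a few tags: the range was at most 5 tags in 53 of the 59 varying sets of replicate 1 and in 42 of the 52 of replicate 2. The widest ranges were found in set 120 for replicate 1 (from 161 to 183 tags) and in set 87 for replicate 2 (from 281 to 322 tags).

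The input background was high at most sets. Its most common value exceeded 5 times the genome-wide average (16.4 and 16.0 tags) in 166 of the 174 sets in each list. Most other shared pairs under the tag limit were above that level too, with lower quartiles of 94.0 and 91.0 tags. At the sets, the most common value varied widely. It ranged from 2.80 times the average in set 89 to 21.2 times in set 87 in replicate 1. Over loci the median was 182 and 172 tags, or 11.1 and 10.8 times the average, beside 142 and 137 tags (8.64 and 8.56 times) at the 49596 other shared pairs under the tag limit. This difference was not tested, since each list is 1 sample.

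In set 1, small differences in input ran with the position of the summit. In this set, the summit lay 90 bp from the start of the 114 bp peak at 29 loci in replicate 1, and 24 bp from it at 27 loci. All 29 loci of the first kind had 157 and 135 input tags in replicates 1 and 2. The 27 of the second kind had 158 in replicate 1, and in replicate 2 had 136 at 26 loci and 138 at 1. The 2 input values of set 1 in replicate 1 were thus split exactly by summit position, while in replicate 2 one side held 2 values. Of the 59 sets whose input varied in replicate 1, 35 had a single value at each summit position. In replicate 2 it was 27 of 52. A position with 1 locus has a single value by construction. Both sides were present, with a single value each, in 28 of the 59 sets and in 16 of the 52. Sets with centred summits or with one side only could not be among these.

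In most sets, summits sat at mirrored positions. In set 1, offsets of 90 and 24 bp lie at similar distances from either end of the peak. In set 2, with peaks of 68 bp, 22 loci had the summit 29 bp from the start and 18 had it 40 bp from the start. Set 3, with peaks of 53 bp, had 22 loci at 23 bp and 14 at 31 bp. The summit was far enough from the peak's centre to tell the sides apart in 158 sets in replicate 1, with 1467 loci. Of these, 1453 (99.0%) lay within 2 bp of the set's most common position or of its mirror image, 928 on the first side and 525 on the other. The first side is defined by that most common position, so its loci fit by construction. Of the 14 loci at neither place, 9 were in set 13, which had no mirrored locus. In replicate 2, 1439 of 1456 loci (98.8%) were at either place. Of the 17 others, 9 were in set 11, again with no mirrored locus in that list. Both sides were present in 149 of the 158 sets.

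The side of a locus was the same by both lists. In 149 sets with off-centre summits in both, the 1351 loci placed in each list split in the same way in both lists. The side is used below as the direction of a locus, that is, which way round its peak shape lies on the chromosome. Of the 9 sets with loci on one side only, 3 were sets on a single chromosome.

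**Figure D2:**
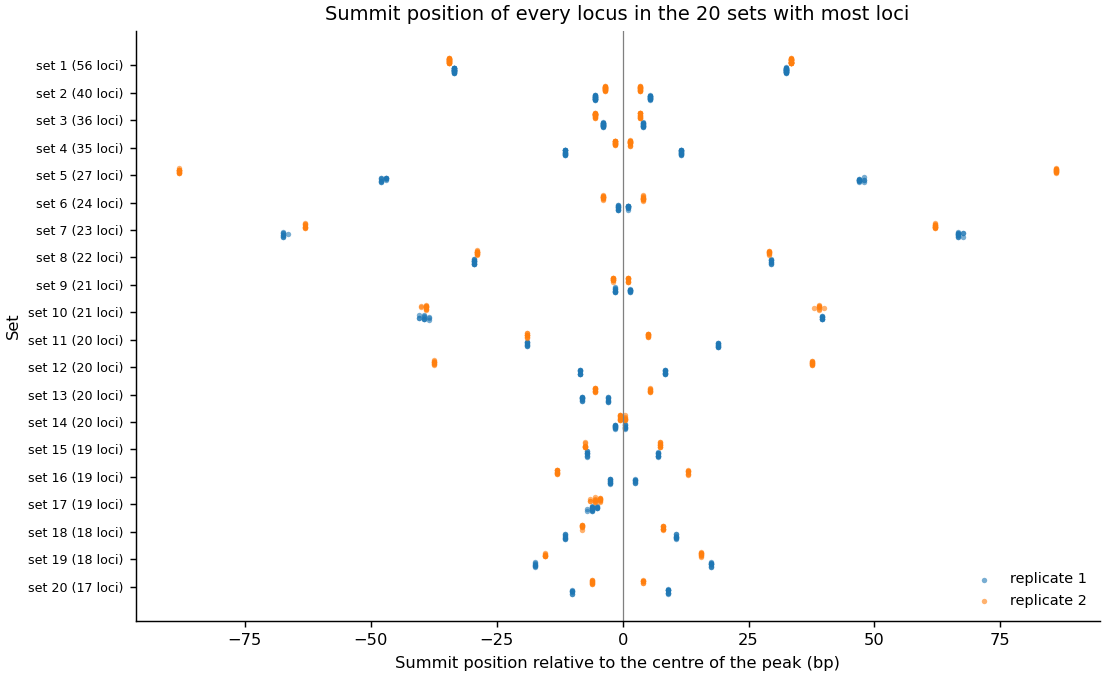
Summit position of every locus in the 20 sets with most loci, in bp from the centre of the peak (x axis), one set per row, with replicate 1 in blue and replicate 2 in orange and a small vertical scatter so that points can be seen. Most sets show a pair of positions on opposite sides of the centre, while all 19 loci of set 17 lie on one side; in set 13 both positions of replicate 1 lie left of the centre.

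Loci of different sets lay at fixed distances from each other. Within 10 kb, 124 pairs of sets had at least 3 loci each at one distance within 5 bp, from 138 to 6984 bp (6983.5 between peak centres). In 109 of these the distance varied by no more than 1 bp. Direction was not used to find these links. In 94 links it could be compared at 2 or more places, and at all 538 of 538 places the loci of the linked sets had the same relative direction as elsewhere in that link. Linked sets were joined into a group when at least 50% of the loci of the smaller set were linked; this threshold was chosen with the distances known. It gave 14 groups with 64 sets and 790 loci (48.2% of all), 7 of them pairs of sets. The 46 sets of the first 6 groups were placed along a line for each group with 40 of their 101 links, which fall on it by construction. Of the 61 other links, 60 fell within 10 bp of the layout. Links of a group share loci and stretches, so their distances are tied to each other and this is no separate check.

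The largest group held 17 sets, among them sets 1 to 4, with 299 loci in all. Along a line of 4500 bp (4500.5 between peak centres), set 29 came first, set 1 followed at 642 bp, sets 2 and 4 at 3245 and 3257 bp, sets 23 and 28 at 3438 bp (3437.5 and 3438.0), and sets 3 and 40 at 4480 (4480.5) and 4500 bp. Stretches with at least 2 of these sets in place numbered 76 on 12 chromosomes, 38 in each direction. No stretch held every position: the fullest, on chromosome 9 from 20696934 to 20701434, held loci of sets at 6 of the 8 positions.

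Sets 2 and 4 took nearly the same place on the line. Set 2 (309 and 291 tags) and set 4 (213 and 203 tags) lay 12 bp apart, in 26 and 34 stretches. Their peaks, 68 and 56 bp long in replicate 1, would overlap in one stretch, so a stretch can hold only one of them by construction. Other sets, at separate places, could be found with either. Set 28 was found with set 2 in 10 of its 13 stretches and with set 4 in none. Sets 29, 119, 47 and 165 were also found with set 2 (in 8 of 12, 4 of 6, 3 of 7 and 1 of 3 stretches) and with set 4 in none. Set 23 was found with set 4 in 14 of its 16 stretches and with set 2 in 1. Sets 27, 40, 72 and 76 were found with set 4 (in 13 of 14, 7 of 7, 7 of 7 and 7 of 7 stretches) and with set 2 in none. Most of these pairs of sets were themselves links at 50% or more, which built the group, so high counts were selected in part. Other sets were found with both. Set 1 was in 18 stretches with set 2 and in 13 with set 4, set 3 in 2 and 13, set 22 in 6 and 4, set 96 in 3 and 2, and set 100, which had the same tags as set 72, in 1 and 4. Sets 23 and 28 had equal tags, 279 and 269, and equal folds, 1.58 and 1.70, and differed by 1 bp in length, 85 and 84 bp in replicate 1. In this way 60 of the 76 stretches held either set 2 or set 4, and 16 held neither.

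Loci of set 3 also lay at a fixed distance from each other. Whether a stretch of the group held set 3 at both ends was not counted. Pairs of its loci, 8 loci in all, were 5481 bp apart (5479 to 5487) in the same direction, and 6 loci of set 40 were likewise 5491 bp apart. The one link off the line belonged to set 3: at 3 places it lay 1634 bp (1634.5) from set 1 on the opposite side, at −992 bp on the line (−992.5), which is 8 bp from where the spacing of 5481 bp would place it (−1000.5).

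The second group held 10 sets with 133 loci over 6984 bp. In order, these were set 6 at 0 bp, set 5 at 715 bp, set 75 at 1008 bp, sets 159 and 51 at 1410 and 1411 bp, set 9 at 4314 bp (4313.5), set 160 at 4758 bp (4757.5), set 24 at 5204 bp (5203.5), set 52 at 6846 bp (6845.5) and set 69 at 6984 bp. Fold was not even along this line. The median fold in replicates 1 and 2 was 1.97 and 1.99 at set 6, 1.81 and 1.78 at set 5 and 1.67 and 1.65 at set 24, but 2.44 and 2.41 at set 9, 2.74 and 2.34 at set 52 and 2.57 and 2.94 at set 69. It was 1.69 and 1.96 at set 75, 1.54 and 2.07 at set 159, 1.70 and 2.06 at set 51 and 1.87 and 2.21 at set 160. Sets 9, 52 and 69 were thus at or above a fold of 2 in both lists, sets 51, 159 and 160 in replicate 2 only, and sets 5, 6, 24 and 75 in neither. Sets 52 and 69 had fewer tags (338 and 328, 261 and 257) than sets 5 and 6 (405 and 440, 401 and 372). Their input was also lower, 118 and 137 at set 52 and 97 and 85 at set 69. At set 5 it was 214 and 242, and at set 6 it was 195 and 183. Set 24 had 318 and 309 tags over 182 and 183. The rule used these tags, so the folds are a description.

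Stretches of the second group numbered 21 on 8 chromosomes, 12 in one direction and 9 in the other. Sets stood at 7 of the 9 positions in 4 stretches, among them those on chromosome 3 from 2630426 to 2637410, on chromosome 6 from 2076948 to 2083931 and on chromosome 9 from 18478420 to 18485404. A position without a locus of its own set often still had a listed peak in both lists. Of the 189 positions in the 21 stretches, 100 held such a locus, 38 another shared pair, 2 a peak of 1 list and 49 none. In 5 stretches a single pair covered both of the last 2 positions and was counted at each, which makes up 10 of the 38. At the position of set 24, 5 of these other pairs had the same 318 and 309 tags as the set, at other lengths. Set 57 also had these tags, at 118 and 117 bp, and only 3 pairs with them lay outside all sets. Some of the 5 were thus loci of set 57. At the position of set 6, the 6 other pairs had 401 tags in replicate 1. In replicate 2 they had between 204 and 388, with a median of 372, the value of the set.

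Of 3 groups with 5 sets each, the one that begins first in the genome was taken as the third group. It held sets 37, 31, 46, 141 and 26, in this order over 3264 bp, with 53 loci. Its 12 stretches lay on 6 chromosomes, 9 in one direction and 3 in the other, and 58 of their 60 positions had a shared pair, 43 of them members. All 5 sets stood in place on chromosome 6 from 26603194 to 26606458, on chromosome 8 from 24603756 to 24607020 and on chromosome 11 from 4199040 to 4202304. Set 46 had 279 and 290 tags and folds of 1.96 and 2.52, and set 26 had 240 and 248 tags and folds of 1.59 and 1.88. Set 141 held the longest peaks of the collection, 933 bp in replicate 1 and 613 bp in replicate 2, with 341 and 317 tags. Loci of sets 26, 31 and 46 also lay 5181 bp from another locus of their own set, 8, 10 and 6 loci respectively, and the directions, known for sets 26 and 46, were the same within each pair. All 8 loci of set 70, outside these groups, lay in pairs 7428 bp apart (7428.5, range 7428 to 7434), again in the same direction.

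Another group of 5 sets, with more loci (83), held sets 16, 35, 8, 7 and 79 over 1842 bp (1842.5), in 24 stretches on 10 chromosomes, 12 in each direction. The median fold in replicates 1 and 2 was 1.77 and 1.28 at set 16, 1.59 and 1.68 at set 35, 1.57 and 1.44 at set 8, 1.83 and 2.10 at set 7 and 1.83 and 2.12 at set 79. Sets 8 and 16 thus had a lower fold in replicate 2 than in replicate 1, and sets 7, 35 and 79 a higher one. Of 96 positions, 63 held a member and 16 another shared pair.

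**Figure D3:**
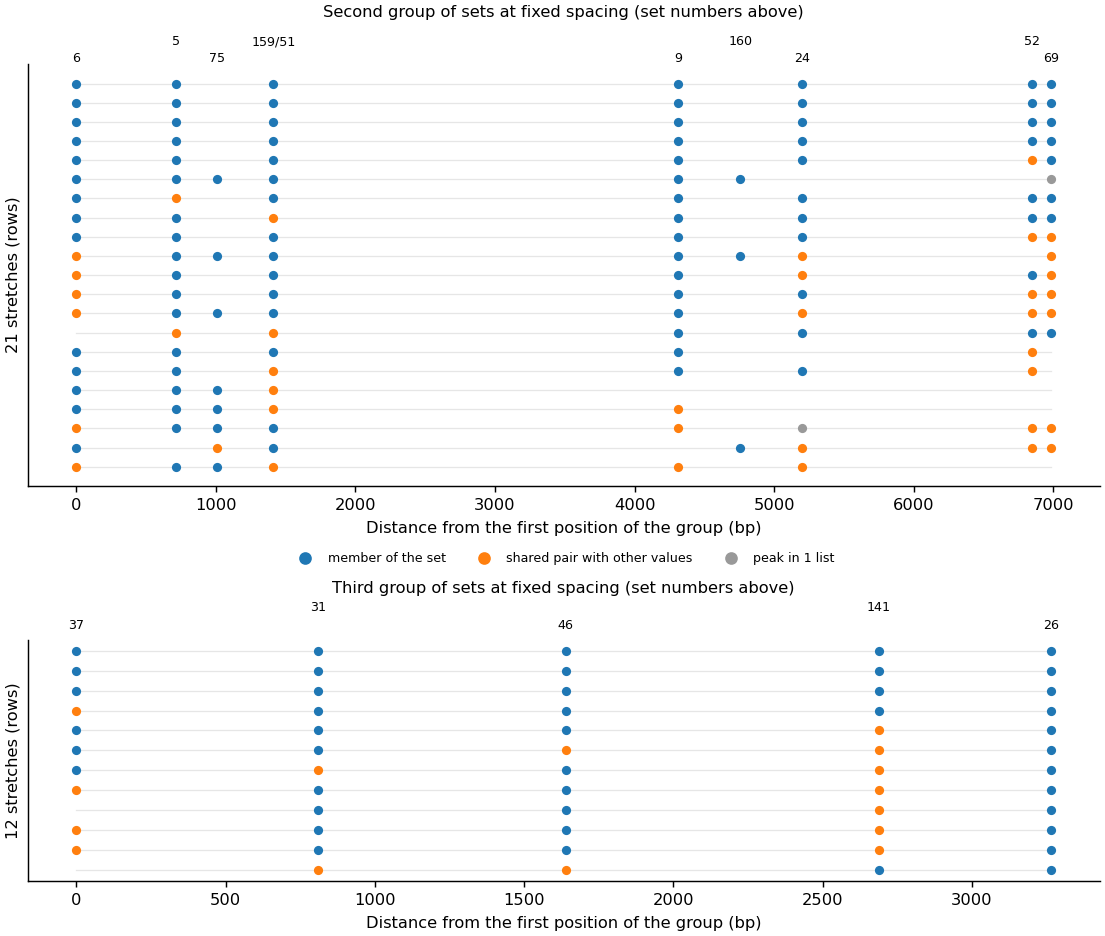
Stretches of the second group (upper panel, 21 rows) and the third group (lower panel, 12 rows), each row 1 stretch turned to the same direction, with distance in bp from the first position of the group on the x axis and set numbers above the positions. Blue points are loci of the set, orange points are shared pairs with other tags or length, and grey points are peaks of 1 list; in 5 rows of the upper panel one pair is drawn at both of the last 2 positions; the columns of points show the fixed positions, 43 of 60 being set members in the lower panel.

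Further sets had the same tag numbers and other lengths. The 174 sets had 151 different combinations of tags, and 41 sets shared theirs with another set. Sets 20 and 25, with 17 and 15 loci, both had 193 and 173 tags and were both 59 bp long in replicate 2, but 67 and 160 bp in replicate 1. Outside the sets, another 1932 shared pairs under the limit had the tag numbers of a set, at other lengths. For set 1 there were 18 of these beside its 56 loci. Whether these belong with the sets was not tested.

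A few sets were confined to a chromosome. Of 7 such sets, 5 lay within a stretch under 100 kb. Set 17 had 19 loci on chromosome 9 between 2755860 and 2848401, each with 137 tags in replicate 1 (115 to 162) and 136 in replicate 2 (114 to 161), over 81 and 72 input tags at every locus. Folds were 1.62 and 1.84. Its loci were 328 to 15495 bp apart and all lay in the same direction. Set 126, with 6 loci, lay in the same region up to 2855377, also in one direction, with 134 and 130 tags and folds of 1.32 and 1.35. Together they made up 25 of the 26 set loci between 2.5 and 3 Mb of chromosome 9, the 500 kb window with the most.

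Set 89 had 7 loci on chromosome 8 between 11182742 and 11240619, with 95 tags in replicate 1 (76.9 to 116) and 99 in replicate 2 (80.5 to 121). Input tags were 46 and 47, the lowest of the sets in replicate 1, and folds were 1.96 and 2.04. Its loci 3 to 6 followed each other in equal steps of 4181 bp. Sets 173 and 174, with 5 loci each, alternated on chromosome 9 between 22948822 and 23011111. The first 3 loci of each were 13672 and 13673 bp apart, and 4 loci of set 173 lay 2638 bp from a locus of set 174. Their tags were 266 and 234 in set 173 and 198 and 204 in set 174, with folds of 2.07 and 1.97, and of 1.99 and 2.05. Set 125, the other one named for its size, had 6 loci over 2093 kb of chromosome 5, all in one direction, with 334 and 354 tags and folds of 1.48 and 1.99.

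**Figure D4:**
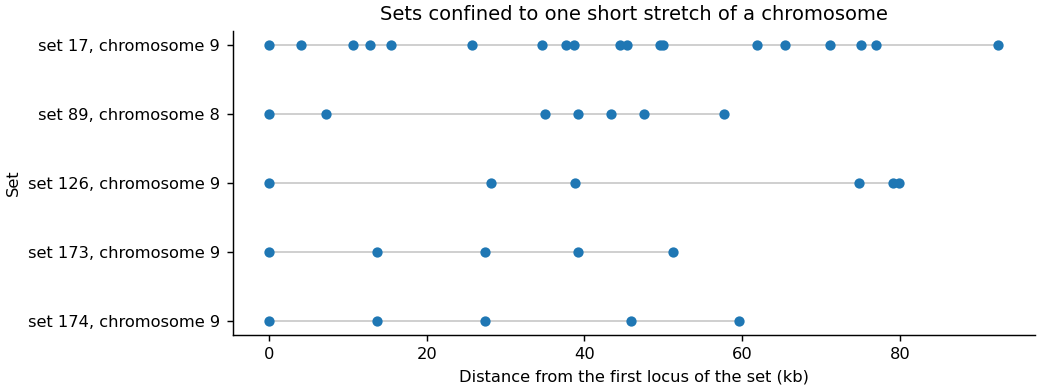
Loci of the 5 sets that lie within under 100 kb of a chromosome, with distance from the first locus of the set in kb on the x axis and one set per row. Set 17 holds 19 loci at uneven distances, and set 89 shows 4 loci at equal steps of 4181 bp.

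Loci of the sets were spread over all chromosomes. Chromosome 1 held 216 loci (13.2% of all set loci, beside 10.8% of all shared pairs), chromosomes 4 and 6 held 177 each (10.8%, beside 12.3% and 8.77%), and chromosome 10 held 60 (3.66%, beside 6.41%). Chromosome 9 held 137 (8.36%, beside 6.27%), of which sets 17, 126, 173 and 174 gave 35. As a share of a chromosome's own shared pairs, set loci ranged from 1.70% on chromosome 10 to 3.95% on chromosome 9. Only 7 loci lay on unplaced sequences. Of the 751 windows of 500 kb with a shared pair, 495 held a set locus. Next to it in rank came a window of chromosome 11 (1.5 to 2 Mb), where 18 of the 60 shared pairs were loci of 11 sets. Loci of one set were mostly far apart: 276 (16.8%) had another locus of their own set within 20 kb, and 512 (31.2%) were the only one of their set on their chromosome. These differences were not tested, since loci are not replicates.

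**Figure D5:**
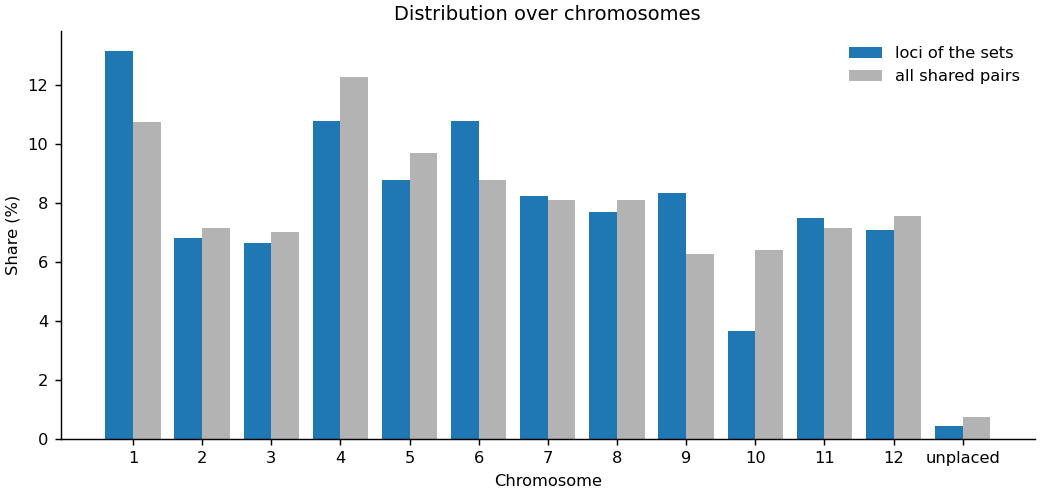
Share of the 1639 set loci (blue) and of the 55251 shared pairs (grey) on each chromosome and on unplaced sequences, in percent. Chromosomes 1 and 9 hold a larger share of the set loci than of the shared pairs, and chromosome 10 a smaller one.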

How the data were processed

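Peak lists of 2 pulled-down libraries were used; the inputs enter as their controls. The submitters' processing notes name cutadapt and MACS2. MACS 2.2.5, per the file headers, compared each replicate with the input of its number (q cutoff 0.05, genome size 400 Mb, fragment length 50 bp, background windows of 1000 and 10000 bp). The deposited pileup is a signal, tags over the summit scaled to the smaller library; division by the scale (0.960 and 0.981) gave whole numbers within 0.02 tags for 100% of peaks. The deposited fold enrichment is a ratio, (pileup + 1) / (input background + 1), from which the background was recomputed. MACS significance is deposited as −log10 of p and of q. Lengths and positions are in bp.

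Distances were taken between replicate 1 peak centres, without sign. The genome-wide input averages were 16.4 and 16.0 tags. Set code was checked on simulated lists. Sets named are the 6 with most loci, the 4 with the highest and 3 with the lowest smaller-of-both median fold, the 3 largest on a chromosome, and sets of the 3 groups with most sets, with ties in the order of first position (not all of the first group); the others named were chosen after their values were seen. Members and lists were chosen with earlier results of these data known. No tests were made, as there is no second condition. Python 3.11.15, NumPy 2.4.6, pandas 2.3.3, SciPy 1.17.1, NetworkX 3.6.1 and matplotlib 3.10.9 were used.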

Additional observations from a re-analysis of the deposited data

How the results depend on the processing

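Of 66 alternative values, 48 moved by less than their limits. The limit was 1.5 times for a count and the SD of the list medians (0.0785) for a fold. For a share it was the 95% Wilson interval. That interval counts each locus as independent, though loci of a set share their values and the alternatives reuse many of the same loci. Staying within it is thus no measure of how stable a share is. The number of loci was 2928 with sets of at least 3, 916 with at least 10, 26438 with length free and 16763 to 17481 with a list alone (sets from replicate 1 or 2, leaving the other out). The median fold was 1.79 in replicate 1 with −log10 q of at least 5, 1.70 in replicate 2 (1.6975) with no tag limit, and 1.89 and 1.95 with a list alone. The share of loci at their set's input value was 86.7% in replicate 1 with no tag limit and 84.7% in replicate 2 with at least 10 loci. It was 46.3% and 46.0% with length free, 38.4% in both with a list alone, and 100% when fold was also matched, which fixes the input. Links between sets numbered 108 to 131. Joining at 70% left 40 sets in groups. The one-sided partner, counting each set once, a tolerance of 0.02 tags and the 70% join were chosen after seeing the data. The cause of the other changes was not tested. No paired analysis was possible because the results come from no test; every fold is itself a ratio to the input with the same number. Tags are capped at 500 per position, so folds are limited where input is high.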
